A study of Caenorhabditis elegans with 25 samples.

Results

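The genes described here encode maternal RNA-binding proteins of the Caenorhabditis elegans oocyte and early embryo. They are oma-1, oma-2, puf-5, puf-11, spn-4, pos-1, mex-1, mex-3, mex-5 and pie-1, a list of gene names drawn up with earlier results of these data known. All 10 were found among the 42532 genes of the count table, and all 10 passed the filter on low counts that left 14634 genes for testing. Poly(A) RNA came from whole worms on day 1 of adulthood, in 25 libraries from 5 genotypes with 5 replicates each and 500 to 600 animals per sample. The flp-17(lof) strain carried the allele n4894 of flp-17, a gene for FMRFamide-like peptides made by the BAG sensory neurons. In the egl-6(lof) strain the allele n4537 affected egl-6, the gene of a receptor for FLP-17 peptides. The flp-17oe strain carried an extrachromosomal array of flp-17 with GFP under the flp-17 promoter and mCherry under the myo-3 muscle promoter. The flp-17oe egl-6(lof) strain, here also called the double strain, joined that array with the egl-6 allele, and N2 was the wild type with neither array nor allele. All experimental strains had been outcrossed 6 times into N2. Array animals were sorted for their fluorescent marker 24 hours before collection, because the array is not passed to every animal, whereas the other 3 strains were washed and replated. Array and sorting therefore cannot be told apart.

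Oocytes of C. elegans are loaded with messenger RNA that is held silent and then translated at set times and places, because transcription stops in late oogenesis and resumes only in the embryo. RNA-binding proteins that attach to the 3′ untranslated regions of these messages carry out much of that control. The members fall into 4 families by their RNA-binding domain. OMA-1, OMA-2, POS-1, MEX-1, MEX-5 and PIE-1 have CCCH zinc fingers, PUF-5 and PUF-11 have PUMILIO repeats, MEX-3 has KH domains and SPN-4 has an RNA recognition motif. Their own messages are made in the germ line of the mother. In whole worms a count therefore reads how much oocyte and early embryo RNA the sample held as well as the level per cell, and fewer cells and less RNA per cell cannot be told apart. Messenger RNA also says nothing of protein, which for most of these genes is set after transcription.

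The members lie on 5 of the 6 chromosomes in the Ensembl annotation of WBcel235, the assembly also called ce11. On chromosome IV are oma-1 (8888976 to 8890999, plus strand), puf-11 (6421585 to 6423497, plus strand) and mex-5 (13353723 to 13356104, plus strand). On chromosome V are oma-2 (8029439 to 8031214, plus strand), pos-1 (8414086 to 8415254, plus strand) and spn-4 (6783187 to 6784903, minus strand). On chromosome II are puf-5 (8575541 to 8577787, plus strand) and mex-1 (11968637 to 11972330, plus strand). The gene pie-1 is on chromosome III (12426893 to 12429195, plus strand) and mex-3 is on chromosome I. None is on the X chromosome, which holds 14.7% of the 13874 protein-coding genes tested. Their longest annotated 3′ untranslated regions had a median of 375 bases, against 148 bases over tested genes, and ran from 108 bases in pie-1 to 688 bases in mex-3. Exons of 3 members overlap a gene on the opposite strand, and the strand setting of the counting is not given in the sources used here. The overlap is 24 bases between pie-1 and snr-6, 18 between mex-1 and acbp-6 and 8 between spn-4 and ZC404.15. Only snr-6, at a mean of 110.2 CPM, was as abundant as its partner, so a small part of the pie-1 count may belong to it. The genes puf-11 and puf-3 are close copies, and reads that fit both make each level uncertain.

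Library totals ran from 25164923 to 99717657 counts, and the 10 members together took 0.309% to 0.638% of them. Levels are in CPM, counts scaled to the size of the library, with library sizes adjusted by the TMM method. The labels were checked on the manipulated genes. Expression of flp-17 averaged 0.310 CPM in flp-17(lof), 4.64 CPM in egl-6(lof), 188 CPM in flp-17oe, 232 CPM in the double strain and 4.62 CPM in N2. Expression of egl-6 averaged 6.07, 2.81, 6.32, 2.89 and 6.03 CPM in the same order of genotypes. Each library carried all 9 oocyte markers (oocyte surface and eggshell genes), with a summed level of 11111 to 14171 CPM, so oocyte RNA was abundant throughout. One library stood apart. Replicate 1 of flp-17(lof) had the fewest counts, a scaling factor of 0.740 against 0.981 to 1.05 in the others, and 9.5% of its counts on ribosomal RNA genes. The flp-17(lof) comparison and the spread and likeness of the members are given with and without it. Genotype means and ratios include it. Replicate 1 of each genotype formed batch 1 and replicates 2 to 5 formed batch 2, per the labels. Whether the replicates were grown as separate cultures is not stated there, so p-values measure only the spread between these samples, which may be technical.

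All 10 transcripts were abundant. Per kilobase of exon, the scale on which genes can be compared, pos-1 was the highest in each of the 5 genotypes, followed by spn-4, puf-5, oma-2, mex-5, mex-3, puf-11, oma-1, mex-1 and pie-1, and this order of means was the same in all 5. POS-1 controls the translation of several maternal messages in the posterior of the embryo. Its transcript averaged 617 ± 74.9 CPM per kilobase in flp-17(lof) and 603 ± 34.8 CPM in egl-6(lof), 658 ± 58.5 CPM in flp-17oe and 625 ± 65.0 CPM in the double strain, and 650.3 ± 60.2 CPM in N2 (SD, n = 5 each). At the other end pie-1, whose product keeps transcription off in the germ line blastomeres, averaged 98.2 ± 10.9, 93.7 ± 5.56, 94.4 ± 5.91, 94.6 ± 6.90 and 96.7 ± 4.67 CPM per kilobase in the same order. Levels of pos-1 per kilobase were 6.63 ± 0.685 times those of pie-1 over the 25 libraries, the lowest ratio being 4.23 in flp-17(lof) replicate 1. Even pie-1 stood above 91.4% of tested protein-coding genes in the genotype where it ranked lowest, and pos-1 reached a percentile of 98.8 in flp-17oe.

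Neighbours in that order were mostly not separated by their spread. The ranges of mex-1 and pie-1 did not overlap in any genotype, and those of mex-3 and puf-11 did not overlap in egl-6(lof), flp-17oe or the double strain. The ranges of pos-1 and spn-4 were separate in egl-6(lof) and N2, and those of puf-11 and oma-1 in flp-17(lof). Every other pair of neighbours had overlapping ranges in every genotype. Within a library the order held better than the ranges imply. In each of the 25 libraries pos-1 was above spn-4, puf-5 above oma-2, oma-2 above mex-5, mex-5 above mex-3 and mex-1 above pie-1. The step from oma-1 to mex-1 was the least firm, with oma-1 higher in 3 of 5 flp-17oe egl-6(lof) libraries and 4 of 5 in each other genotype.

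**Figure D1:**
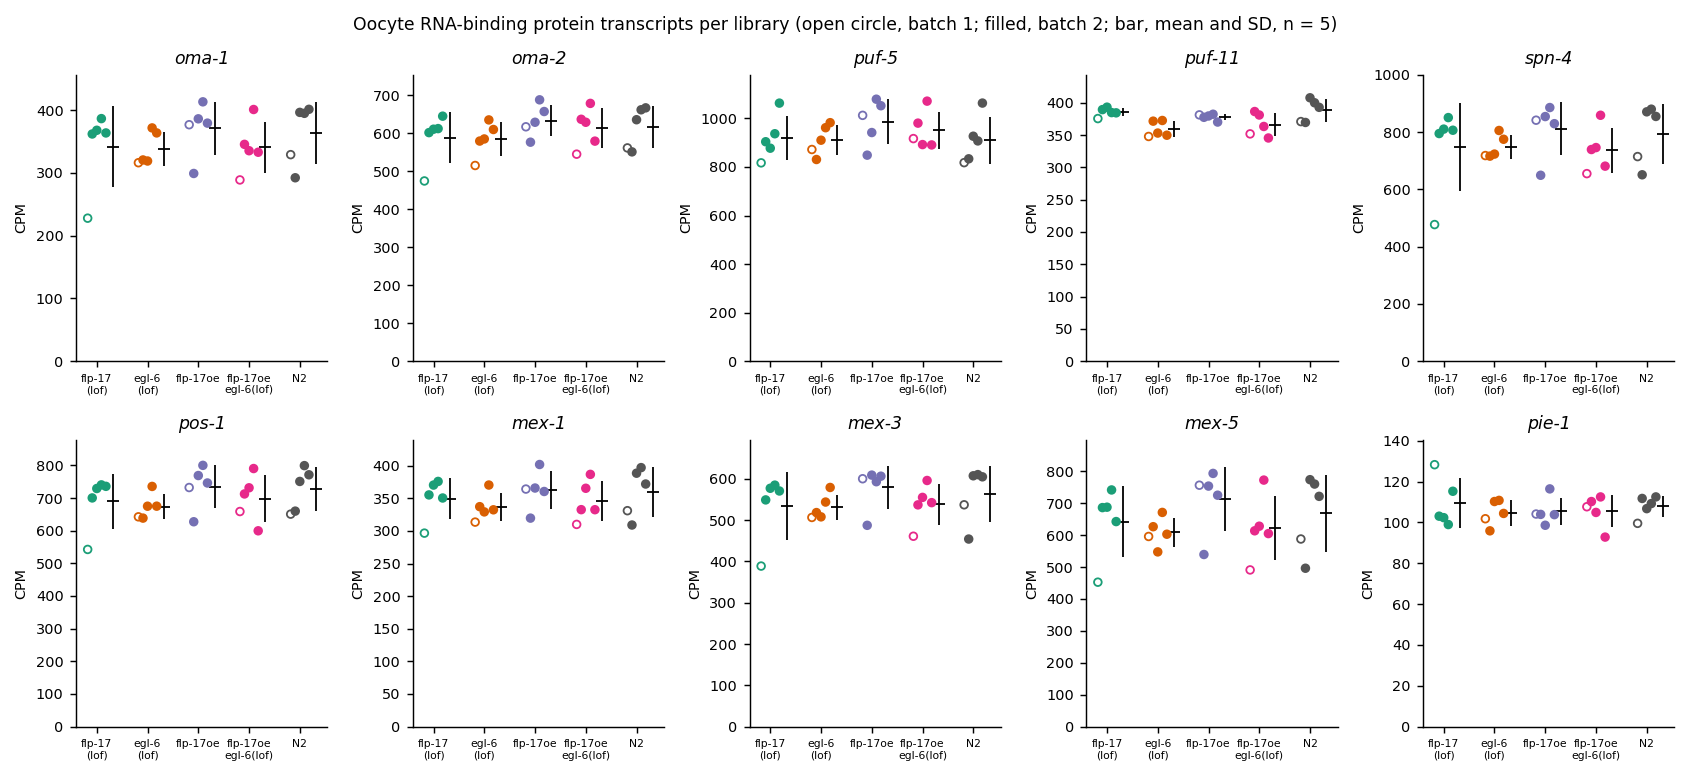
Level of each of the 10 transcripts (CPM, linear axes from 0) in every library by genotype, with open circles for batch 1, filled circles for batch 2 and a bar for the mean and SD of 5 libraries. The 5 genotypes overlap for each gene, puf-11 varies least, and the first flp-17(lof) library is the lowest of its genotype for 9 genes and the highest for pie-1.

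The gene mex-5 gave the largest difference of any member in any comparison, and its values show how far libraries of one genotype differ. MEX-5 is a CCCH protein that gathers in the anterior of the zygote and keeps germ plasm proteins out of it. Its 5 libraries had 453, 686, 688, 742 and 643 CPM in flp-17(lof), and 596, 626, 548, 671 and 603 CPM in egl-6(lof). The array strains had 757, 539, 754, 794 and 725 CPM in flp-17oe, and 491, 614, 628, 773 and 605 CPM in flp-17oe egl-6(lof). N2 had 588, 496, 774, 760.1 and 722 CPM. Each genotype held libraries on both sides of the mean of N2, 668 CPM, and the ranges of all 5 overlapped.

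The gene puf-11 behaved differently, with little spread. PUF-11 is a PUMILIO-type protein of late oocytes and early embryos that acts with its close copy PUF-3. Its libraries had 375, 389, 393, 385 and 384 CPM in flp-17(lof), and 348, 371, 353, 372 and 349.7 CPM in egl-6(lof). They had 381, 377, 379, 382 and 370.1 CPM in flp-17oe, and 352, 386, 381, 363 and 345 CPM in flp-17oe egl-6(lof). N2 had 371, 369, 408, 399.9 and 393 CPM. All 5 libraries of egl-6(lof), of flp-17oe and of the double strain lay below the N2 mean of 388 CPM, but in none of these were the ranges separate from N2.

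No member passed the test in any comparison. The test was edgeR's quasi-likelihood F test with Benjamini-Hochberg adjustment over all 14634 genes, at an adjusted p under 0.05. In no pairwise comparison did the 5 libraries of a member in one genotype lie wholly above or below those of the other. The 3 comparisons against N2 share its 5 libraries, and egl-6(lof), flp-17oe and the double strain each enter 2 comparisons, so these are not independent of each other.

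In flp-17(lof) against N2, the comparison that asks what depends on the peptide gene, 0 of 10 members were called, and the share called over all genes was 0.0752%. For separate ranges the count was also 0 of 10, against 0.54% of all genes, and at an unadjusted p under 0.05 it was 0 of 10, against 2.67%. DESeq2 called 0 as well. Their log2 changes ran from -0.10 to 0.02 with a median of -0.07. The median over all genes was 0.01, with 48.1% of all genes below 0. Both OMA genes, which encode redundant zinc finger proteins needed for oocyte maturation, had values just below 0. Their log2 changes were -0.10 (95% interval -0.32 to 0.12) for oma-1 and -0.07 (-0.20 to 0.07) for oma-2. The interval for spn-4, whose product orients early spindles and controls maternal messages, ran from -0.33 to 0.13, and that for mex-5 from -0.33 to 0.20. Over the 10 members the intervals reached at most 0.795 times and 1.15 times the level of N2. The value depended on single libraries. Without flp-17(lof) replicate 1 the median was 0.01, with 6 of 10 members above 0, against 2 of 10 with it. Without N2 replicate 2 it was -0.12 with 9 of 10 below 0, and without replicate 2 of all genotypes oma-1 and mex-3 had an unadjusted p under 0.05, though no member was called. For the latter fit the share of all genes at that level was not taken. Within batch 1, a single library per genotype, the median difference was -0.25, and within batch 2 it was -0.01.

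In egl-6(lof) against N2, which asks what depends on the receptor, 0 of 10 members were called, and 0.485% of all genes were. Separate ranges were found for 0 of 10, against 1.46% of all genes. Here 9 of 10 log2 changes were below 0, with a median of -0.09 and a range of -0.13 to 0.00. Over all genes 53.4% of changes were below 0 and the median was -0.01. The largest was that of mex-5, with 609 ± 45.2 CPM in egl-6(lof) and 668 ± 121 CPM in N2 (SD, n = 5 each), a log2 change of -0.13 (SE 0.13). The only member with an unadjusted p under 0.05 was puf-11, and 7.66% of all genes had one. It averaged 359 ± 12.1 CPM in egl-6(lof) and 388 ± 17.3 CPM in N2 (SD, n = 5 each), 0.925 times the level of N2 with a 95% interval of 0.871 to 0.982. Its log2 change was -0.11 (SE 0.04), with an adjusted p of 0.275 by edgeR and 0.0539 by DESeq2. Single libraries moved these values. Without N2 replicate 2 the median was -0.16 with 10 of 10 below 0, mex-5 had -0.24, and 3 members had an unadjusted p under 0.05 (puf-11, mex-1 and oma-2), though none was called. For that fit the share of all genes at that level was not taken. Without replicate 3 of all genotypes the median was -0.06. For puf-11 the log2 change was -0.09 between the single libraries of batch 1 and -0.12 within batch 2. The zygote regulator pos-1 had -0.11 (SE 0.08), and mex-1, a CCCH gene needed to keep germ line and somatic fates apart, had -0.09 (SE 0.07).

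Markers of other cells differed in the same comparison. Of 12 tested sperm markers 3 rose in egl-6(lof), led by spe-41 with 5.16 ± 0.715 CPM in egl-6(lof) and 3.18 ± 0.389 CPM in N2 (SD, n = 5 each; log2 0.70, edgeR adjusted p = 0.00136). The sperm list summed to 32.4 to 59.7 CPM in egl-6(lof) libraries and 14.0 to 58.4 CPM in N2 libraries. The batches differed in direction. Between the single libraries of batch 1 it was 32.4 CPM in egl-6(lof) and 58.4 CPM in N2. Within batch 2 it was 36.2 to 59.7 CPM in egl-6(lof) and 14.0 to 19.2 CPM in N2. DESeq2 called 8 of the 12. None of the 9 oocyte markers passed by edgeR or DESeq2, and 0 had an unadjusted edgeR p under 0.05, though all 9 log2 changes were below 0 with a median of -0.06. The oocyte list summed to 11111 to 13103 CPM in egl-6(lof) and 11705 to 13661 CPM in N2. Their part in the values of the members was not tested.

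In flp-17oe against N2, the comparison of peptide excess, 0 of 10 members were called although 6.96% of all genes were. Separate ranges were found for 0 of 10, against 8.66% of all genes, and an unadjusted p under 0.05 for 0 of 10, against 21.4%. DESeq2 called 0 of the 10. Log2 changes ran from -0.04 to 0.12 with a median of 0.04, and 8 of 10 were above 0. Over all genes 49.2% of changes were below 0 and the median was 0.005. The largest of the members was puf-5, whose product represses translation in late oocytes. It had 1013, 849, 942, 1079 and 1052 CPM in flp-17oe, against 818, 834, 927, 907 and 1063 CPM in N2. Of the 5 flp-17oe libraries 4 exceeded the N2 mean, but the highest N2 library also exceeded 4 of them. The log2 change was 0.12 (SE 0.08) with an edgeR adjusted p of 0.400. The batches differed in sign. The median over members was 0.17 between the single libraries of batch 1 and -0.01 within batch 2, where 6 of 10 values were below 0. Single libraries turned or raised it as well. Without N2 replicate 2 the median was -0.01 with 7 of 10 below 0, and without flp-17oe replicate 2 it was 0.12, with 0.22 for mex-5. Without flp-17oe replicate 1 it was -0.01, also with 7 of 10 below 0, and leaving out any other single library or replicate number gave medians within the range of -0.01 to 0.12. Marker transcripts of other cells and stages did differ, as 9 of 11 late embryo cuticle markers rose and 5 of 9 body wall muscle markers fell. Of 10 intestine markers asp-3 and elt-2 rose and vit-3 fell. The late embryo list summed to 22.2 to 111 CPM in flp-17oe libraries and 18.1 to 26.2 CPM in N2 libraries. Its batches differed in direction. Between the single libraries of batch 1 it was 22.2 CPM in flp-17oe and 25.6 CPM in N2. Within batch 2 it was 54.1 to 111 CPM in flp-17oe and 18.1 to 26.2 CPM in N2. The muscle list summed to 2981 to 3462 CPM in flp-17oe and 3830.0 to 4889 CPM in N2. The intestine list summed to 65579 to 74427 CPM in flp-17oe and 57275 to 72585 CPM in N2. Their part in the members' values was not tested.

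In the double strain against flp-17oe, which asks what the receptor contributes under peptide excess, 0 of 10 members were called and 1.39% of all genes were. Separate ranges were found for 0 of 10, against 2.28% of all genes, and an unadjusted p under 0.05 for 0 of 10, against 10.3%. None of the 10 was called by DESeq2. Of the 10 log2 changes 9 were below 0, with a median of -0.07. Over all genes 49.6% of changes were below 0 and the median was 0.002. The lowest value of a member in the study was here, mex-5 with 622 ± 100.3 CPM in flp-17oe egl-6(lof) and 714 ± 100.4 CPM in flp-17oe (SD, n = 5 each). Its log2 change was -0.21 (SE 0.13), a fold of 0.864 with a 95% interval of 0.720 to 1.04 and an edgeR adjusted p of 0.613. In batch 1 the single libraries differed by -0.62, against -0.11 within batch 2. Without flp-17oe replicate 2 the value for mex-5 was -0.33 and the median over members was -0.15, with 10 of 10 below 0. In that fit 4 members, oma-1, spn-4, mex-3 and mex-5, had an unadjusted p under 0.05, and none was called, the smallest edgeR adjusted p being 0.210. These 4 moved together from library to library, so they are not independent of each other. The share of all genes at that level was not taken for that fit. Without replicate 4 of the double strain the median was -0.13, and without batch 1 it was -0.04, the range over all libraries and replicate numbers left out being -0.15 to -0.04. Next were spn-4 with -0.15 (SE 0.11), oma-1 with -0.13 (SE 0.11) and mex-3 with -0.11 (SE 0.09). MEX-3 is the KH protein that represses the pal-1 message in the anterior of the embryo. The gene pie-1 did not share that direction, with 108, 110.2, 105, 112 and 92.8 CPM in flp-17oe egl-6(lof) and 104, 104, 98.6, 116 and 104 CPM in flp-17oe. Its log2 change was 0.00 (SE 0.07). Of 14 tested early embryo markers 3 rose in the same comparison, namely sdz-28, tbx-11 and pes-10. The early embryo list summed to 23.2 to 29.5 CPM in flp-17oe egl-6(lof) and 16.8 to 22.8 CPM in flp-17oe. Of 12 tested sperm markers 1 rose, spe-41 (log2 0.56, edgeR adjusted p = 0.00877), and DESeq2 called it too. The list did not share that direction, as 9 of the 12 log2 changes were below 0. The part of either list in the members' values was not tested.

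In the double strain against egl-6(lof), peptide excess without the receptor, 0 of 10 members were called although 14.4% of all genes were. Separate ranges were found for 0 of 10, against 8.19% of all genes, and an unadjusted p under 0.05 for 0 of 10, against 24.6%. DESeq2 gave 0 calls too. The log2 changes ran from -0.03 to 0.07 with a median of 0.02, the same as the median over all genes. Leaving out single libraries or replicate numbers gave medians of 0.00, without replicate 4 of the double strain, to 0.06, without its replicate 5. For oma-2 the libraries had 545, 637, 629, 678 and 579 CPM in flp-17oe egl-6(lof) and 515, 579, 585, 635 and 609.7 CPM in egl-6(lof). Its log2 change of 0.07 (SE 0.06) was the largest of the 10, with an edgeR adjusted p of 0.605. The 95% intervals of the members reached at most 0.836 times and 1.22 times the level of egl-6(lof). In this comparison 10 of 12 sperm markers fell, 10 of 11 late embryo markers rose and 6 of 9 body wall muscle markers fell, while of 10 intestine markers asp-3 rose and act-5 fell. The sperm list summed to 15.6 to 30.7 CPM in flp-17oe egl-6(lof) and 32.4 to 59.7 CPM in egl-6(lof). Between the single libraries of batch 1 it was 30.7 CPM in the double strain and 32.4 CPM in egl-6(lof). Within batch 2 it was 15.6 to 19.7 CPM in the double strain and 36.2 to 59.7 CPM in egl-6(lof).

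The interaction asks whether the array difference depended on egl-6. By edgeR and by DESeq2 0 of the 10 members passed, and 0.0888% of all genes did by edgeR. At an unadjusted edgeR p under 0.05 the count was 0 of 10, against 7.34% of all genes. Values ran from -0.08 for mex-5 to 0.06 for puf-11 on the log2 scale, with 5 members on each side of 0. That balance depended on single libraries. Without N2 replicate 2 or without batch 1 there were 9 of 10 above 0, and without flp-17oe replicate 2 there were 8 of 10 below 0, with -0.19 for mex-5. Intervals were widest here, from -0.45 to 0.29 for mex-5 and from -0.06 to 0.19 for puf-11. A joint test of any difference among the 5 genotypes called 0 of 10 members and 21% of all genes. At an unadjusted p under 0.05 the count was 1 of 10, against 32% of all genes. The smallest p was that of puf-11, with an unadjusted p of 0.0490 and an adjusted p of 0.154 by edgeR. DESeq2 called puf-11 in that joint test, with an adjusted p of 0.00805, and called no other member there and none in the other 6 tests. Over all genes DESeq2 called 4278 of 22410 in that joint test. With N2 replicate 2 left out, edgeR also called puf-11, at an adjusted p of 0.0496, among 3291 called of 14759 genes. Unadjusted p-values under 0.05 by edgeR were therefore 2 in all 7 tests, both of puf-11.

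**Figure D2:**
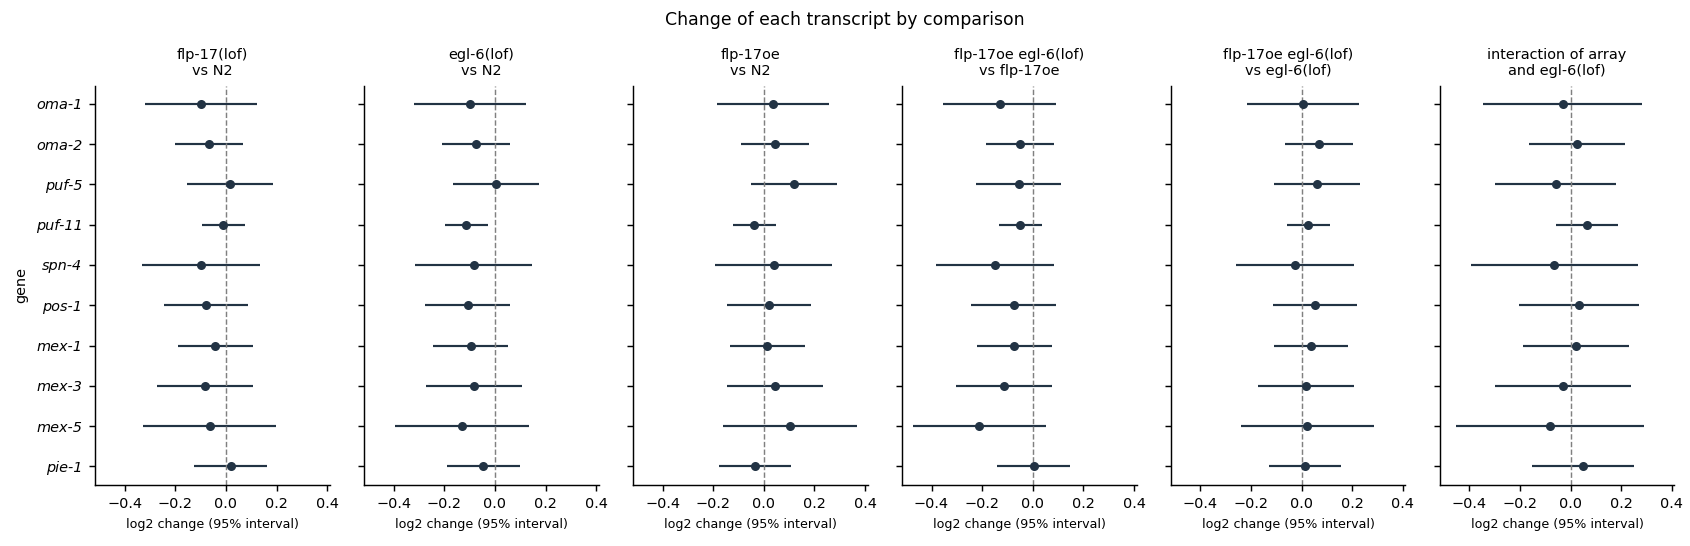
Log2 change of each transcript with its 95% interval in the 5 pairwise comparisons and in the interaction between array and receptor allele, the first-named genotype over the second. All intervals except that of puf-11 in egl-6(lof) against N2 (-0.20 to -0.03) include 0, and the widest are those of mex-5.

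While the genotypes did not separate the members, the libraries did. Most members moved up and down together from library to library, whatever the genotype. Over the 25 libraries, oma-1 and spn-4 had a Pearson r of 0.983 on log2 CPM (Spearman rho 0.967), although they share neither a domain family nor a chromosome. For oma-1 the values were 228, 362, 368, 387 and 364 CPM in flp-17(lof), 316, 321, 319, 372 and 364 CPM in egl-6(lof), and 377, 299, 386, 413 and 379 CPM in flp-17oe. They were 289, 346, 335, 401 and 333 CPM in flp-17oe egl-6(lof), and 329, 292, 396, 395 and 401 CPM in N2. For spn-4 they were 477, 795, 810.3, 851 and 806 CPM in flp-17(lof), 718, 716, 723, 806 and 775 CPM in egl-6(lof), and 841, 649, 854, 886 and 829 CPM in flp-17oe. They were 655, 739, 746, 859 and 681 CPM in flp-17oe egl-6(lof), and 714, 651, 871, 880.0 and 855 CPM in N2. Both genes had the same lowest library in 4 of the 5 genotypes, and the pair kept an r of 0.974 without flp-17(lof) replicate 1. These points share their libraries, depth and scaling, so the correlations are a description of these libraries.

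The genes oma-1, spn-4, mex-3 and mex-5 were alike in all their pairs, with an r of 0.927 to 0.983. For oma-1 it was 0.969 with mex-3 and 0.944 with mex-5. The genes oma-2, mex-1 and pos-1 came close, with an r of 0.908, 0.902 and 0.901 to oma-1. Without flp-17(lof) replicate 1 these were 0.859 for oma-2, 0.918 for mex-1 and 0.854 for pos-1. For puf-5 the best match among members was oma-2, with 0.775, and for puf-11 it was mex-1, with 0.595. The PUMILIO genes were least alike each other, at 0.140. Over all 25 libraries pie-1 stood apart from these, with a best r of 0.266 with puf-5 and a lowest of -0.331 with mex-3. Both values depended on a single library. Without flp-17(lof) replicate 1 the best r of pie-1 was 0.563, again with puf-5, against a best r of 0.654 for puf-11. Its r with mex-3 was then 0.04, and no pair of members was negative. The median over the 45 pairs was 0.714, or 0.697 without that library.

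**Figure D3:**
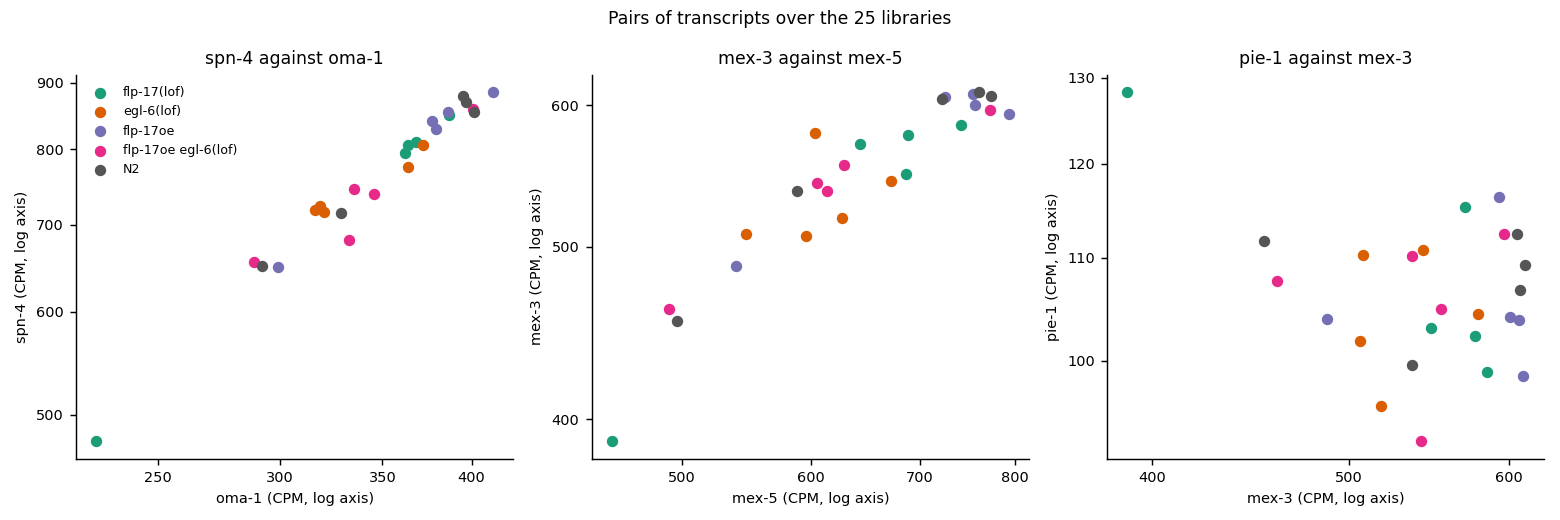
Levels of 3 pairs of transcripts in the 25 libraries (CPM, log axes on both sides), coloured by genotype. The points of spn-4 against oma-1 (r 0.983) and mex-3 against mex-5 (r 0.930) follow a line with genotypes intermixed, whereas pie-1 against mex-3 (r -0.331) does not, and the isolated point in each panel is flp-17(lof) replicate 1.

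The libraries that were low can be named. A score was taken as the mean over members of the log2 CPM less each gene's mean over 25 libraries. It was lowest in flp-17(lof) replicate 1, at -0.316, where spn-4 was 0.67 below its mean and pie-1 was 0.27 above. The next lowest were flp-17oe egl-6(lof) replicate 1 at -0.163, N2 replicate 2 at -0.163, flp-17oe replicate 2 at -0.138 and egl-6(lof) replicate 1 at -0.122. The highest was flp-17oe replicate 4, at 0.183, where all 10 members were above their means. So each genotype had its low library, and it was replicate 1 or 2 in all 5.

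Libraries low in the members were often those with more ribosomal RNA, which poly(A) selection is meant to remove. That share was 9.5% in flp-17(lof) replicate 1, 2.55% in flp-17oe egl-6(lof) replicate 1, 3.12% in N2 replicate 2, 2.58% in flp-17oe replicate 2 and 2.51% in egl-6(lof) replicate 1. It was 0.285% in flp-17oe replicate 4, the library with the highest score. Other libraries did not follow that order. Replicate 2 of flp-17oe egl-6(lof) had 2.47% and a score of 0.00, N2 replicate 3 had 1.74% and 0.12, and flp-17oe egl-6(lof) replicate 5 had 0.619% and -0.11. The part of the ribosomal share in these scores was not tested.

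**Figure D4:**
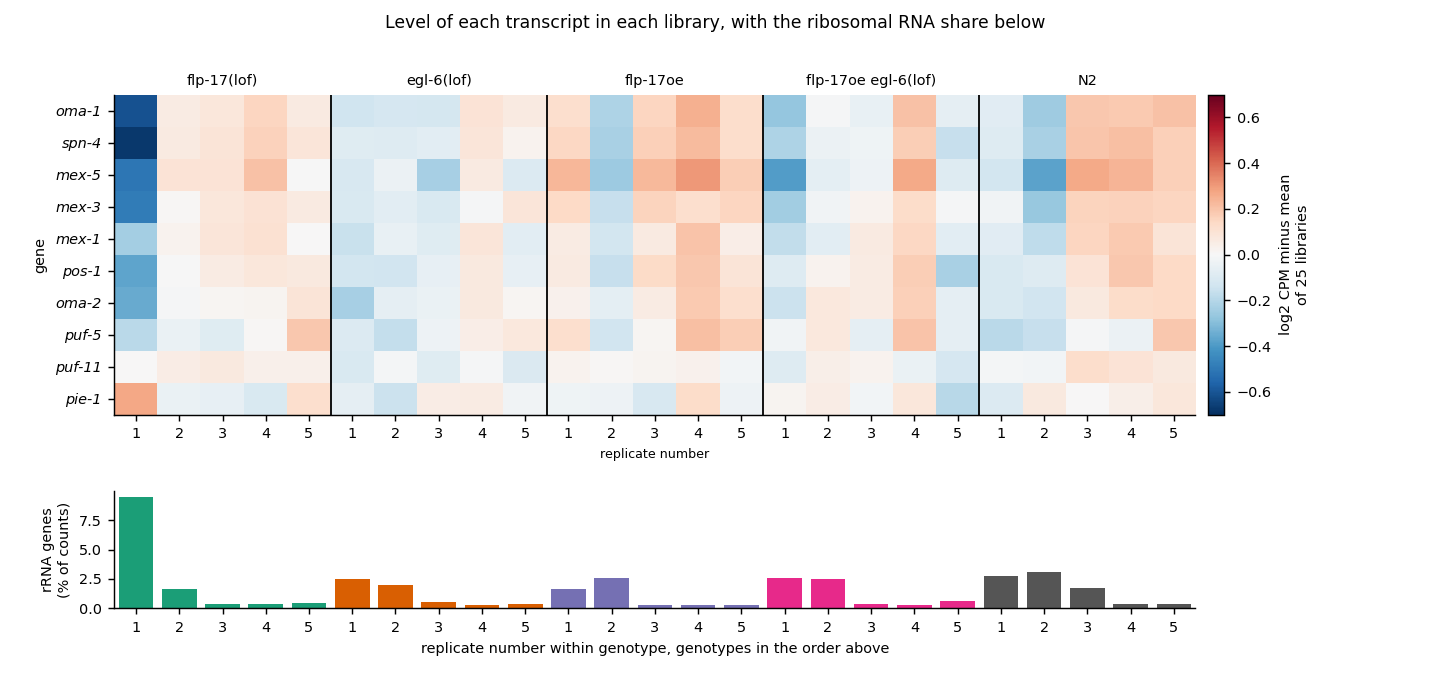
Log2 CPM of each transcript less its mean over 25 libraries (colour), by genotype and replicate, above the percentage of counts on ribosomal RNA genes in each library (bars, axis from 0). The columns are mostly of 1 colour, blue for the low libraries such as flp-17(lof) replicate 1 and red for the high ones such as flp-17oe replicate 4, while the rows of puf-11 and pie-1 stay pale or run the other way.

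The members differed in how much they varied between replicates. The SD of log2 CPM within genotypes, pooled over the 5, was 0.05 in puf-11, 0.11 in pie-1, and 0.13 in mex-1, puf-5 and oma-2. It was 0.14 in pos-1, 0.17 in mex-3, 0.21 in oma-1 and spn-4, and 0.23 in mex-5. Among the 500 tested genes nearest in level, puf-11 stood at the percentile of 4.0, oma-1 at 79.8 and mex-5 at 79.2. These percentiles were 5.4, 74.0 and 87.6 without flp-17(lof) replicate 1. The SDs of oma-1, spn-4 and mex-5 were then 0.16, 0.15 and 0.20. Over all 25 libraries the median SD of the members was 0.137, against 0.225 over all tested genes, many of which are much less abundant. Without flp-17(lof) replicate 1 these medians were 0.123 and 0.191. These SDs were taken about the genotype means and so include any batch difference, whereas the tests had a batch term. The spread left in the model of the tests sets what could be seen. A 95% interval for a pairwise log2 change had a half-width of about 2 standard errors, and standard errors were 0.04 for puf-11 and 0.13 for mex-5.

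**Figure D5:**
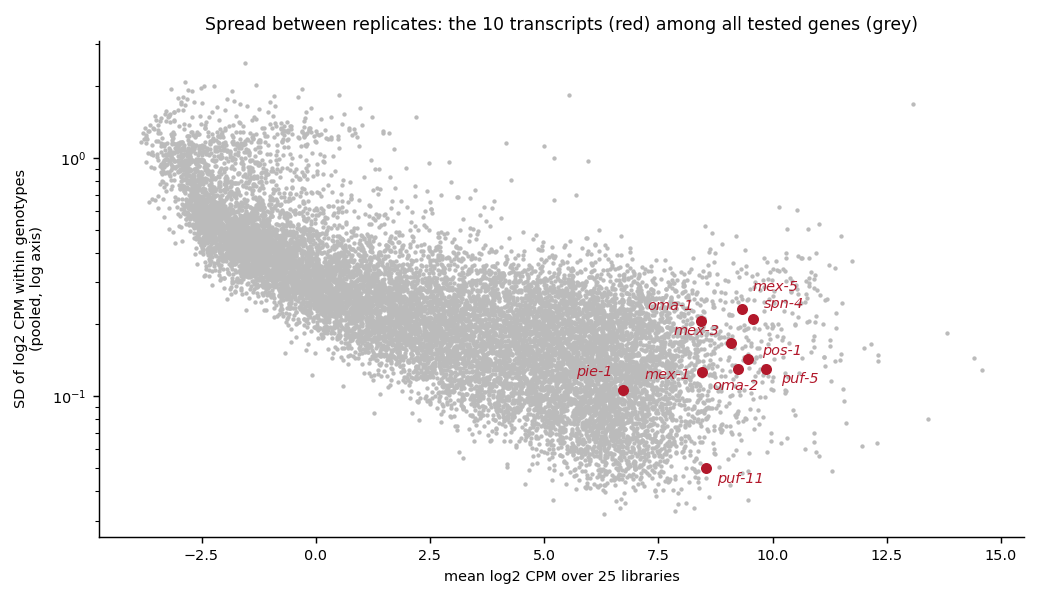
SD of log2 CPM within genotypes, pooled over 5 genotypes (log axis), against mean log2 CPM over 25 libraries, for the 10 transcripts (red) and all 14634 tested genes (grey). Among genes of like level puf-11 lies near the lower edge (SD 0.05) and mex-5 (0.23), spn-4 (0.21) and oma-1 (0.21) in the upper part.

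Ratios were taken between related genes. Per kilobase, oma-2 was 2.03 ± 0.141 times as abundant as oma-1 over the 25 libraries, and the means by genotype lay between 2.10 in the double strain and 1.99 in N2. The widest departure was 2.42 in flp-17(lof) replicate 1. Levels of puf-5 were 2.09 ± 0.195 times those of puf-11, with libraries from 1.82 to 2.46. The ratio averaged 1.99 ± 0.195 in flp-17(lof) and 2.13 ± 0.172 in egl-6(lof), then 2.18 ± 0.209 in flp-17oe and 2.18 ± 0.183 in the double strain, and 1.96 ± 0.172 in N2 (SD, n = 5 each). Among near copies outside the 10, puf-3 stood at 1.26 ± 0.0454 times puf-11, and mex-5 at 1.51 ± 0.0716 times mex-6, its partly redundant partner (SD, n = 25). The genotypes overlapped in each of these ratios.

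Other genes of the worm shared the pattern of the members' score. Among 9502 tested genes outside the 10 whose log2 CPM averaged 1 or more, the median r to the score was 0.037 and 2.07% exceeded 0.9. The closest was plin-1, the perilipin gene of lipid droplets, with an r of 0.98 over 25 libraries. Next came pal-1 with 0.971, a maternal homeobox message that MEX-3 is known to repress, and then npp-22, a nuclear pore membrane gene, with 0.966. The other 5 of the top 8 were F45F2.11 (0.965), chtl-1, a choline transporter-like gene (0.963), mek-1, a MAP kinase kinase gene (0.960), hda-1, a histone deacetylase gene (0.959), and R151.2 (0.958). Without flp-17(lof) replicate 1 plin-1 and pal-1 were still the closest, with 0.974 and 0.962, and the share above 0.9 was 0.863%.

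Few of the genes that work with the members were called. Of 30 tested partners and other RNA regulators of oocytes, such as translational repressors, poly(A) polymerases and deadenylases, 0 passed in any of the 6 comparisons. Of 24 kinases and degradation factors of the oocyte-to-embryo switch, 12 maternal messages that the members are known to bind or control, 12 P granule genes and 7 other germ line CCCH genes, 0 passed as well. By unadjusted edgeR p under 0.05, the partners had 2 genes each in flp-17oe against N2 and in the double strain against flp-17oe and 0 elsewhere, and the kinases and the maternal messages had 0 throughout. At that level the P granule genes had 2 in flp-17oe against N2 and 1 in the double strain against egl-6(lof), and the CCCH genes had 1 in each of these. The share of all genes at that level was 21.4% in flp-17oe against N2. In the double strain it was 10.3% against flp-17oe and 24.6% against egl-6(lof). DESeq2 called 2 partners in flp-17oe against N2, mina-1 and pab-1, and 1 in the double strain against egl-6(lof), pab-1. It called 0 genes of the other 4 lists. In egl-6(lof) against N2 the log2 change was below 0 for 30 of 30 partners, with a median of -0.07, for 23 of 24 kinases and degradation factors, with a median of -0.07, and for 12 of 12 maternal messages, with a median of -0.08. The median of the members was -0.09 and that of all genes -0.01, with 53.4% of all genes below 0. Genes of these lists share their libraries and vary together, and the lists may share genes, so these counts are not independent. In the double strain against flp-17oe the partners had a median of -0.11 with 26 of 30 below 0, and against egl-6(lof) it was 0.01 with 13 of 30 below 0. Of all genes 49.6% were below 0 against flp-17oe and 44.3% against egl-6(lof). The other lists differed in direction against flp-17oe. Kinases and degradation factors had a median of -0.08 with 21 of 24 below 0, and maternal messages -0.08 with 10 of 12. P granule genes had -0.001 with 6 of 12 below 0, and the CCCH genes 0.07 with 2 of 7.

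Among 8 other PUMILIO genes tested, 2 fell in the double strain against egl-6(lof) and 0 passed in the other comparisons, where 1 gene each had an unadjusted edgeR p under 0.05 in flp-17oe against N2, in the double strain against flp-17oe and in the interaction. Of all genes 21.4%, 10.3% and 7.34% had such a p, in the same order. DESeq2 called the same 2 PUMILIO genes in the double strain against egl-6(lof) and puf-12 also in flp-17oe against N2. The first was fbf-2, a regulator of germ line stem cells, with 15.1 ± 0.813 CPM in flp-17oe egl-6(lof) and 19.2 ± 1.1 CPM in egl-6(lof) (SD, n = 5 each). Its log2 change was -0.34 (SE 0.07) with an edgeR adjusted p of 0.00208. The second was puf-12, with 201 ± 11.6 CPM in flp-17oe egl-6(lof) and 227 ± 10.4 CPM in egl-6(lof) (SD, n = 5 each), a log2 change of -0.18 (SE 0.05) and an edgeR adjusted p of 0.0113. In this comparison 14.4% of all genes were called. Of the 9 oocyte markers 1 rose there, perm-4, a gene of the eggshell permeability barrier, with a log2 change of 0.23 (SE 0.07) and an edgeR adjusted p of 0.0213. The PUF and oocyte marker genes were steady between replicates, with a median SD of 0.11 and 0.12 on the log2 scale. Sperm and late embryo markers varied far more, with median SDs of 1.04 and 0.85, and early embryo markers had 0.35.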

How the data were processed

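Poly(A) RNA of whole worms was sequenced on the Illumina platform. The submitters' processing notes name STAR 2.7.11b and build ce11. The authors deposited unnormalized counts, whole numbers for each gene in each library. Which program counted them, with which annotation and strand setting, is not given in the sources used here. Gene positions came from Ensembl 115, in which 40181 of the 42532 symbols matched once. Library totals of 25164923 to 99717657 set the depth, and the least abundant member had 2389 counts or more per library. Replicates differed by a chi-square of 5.70 per gene or more, above sampling noise, so each counted as 1 sample.

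Genes were kept by filterByExpr (a minimum of 10 counts, scaled to library size, and 15 in total). With edgeR 4.0.16 (TMM scaling, robust quasi-likelihood; limma 3.58.1, R 4.3.3), 1 model with genotype and batch terms covered all 25 libraries, and p-values were adjusted by Benjamini-Hochberg within a comparison. CPM used TMM-scaled library sizes, and log2 CPM a prior count of 2. Likeness and spread are descriptions. Figures were drawn with matplotlib, and the procedure was tested on simulated data. Alternatives were DESeq2 1.42.0, other size factors, filters and models, and leaving out replicate numbers and single libraries.

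Named are all members, up to 4 called genes per list and comparison with the smallest p, and the 8 genes most like the members' mean pattern. Near copies and the members' antisense neighbours were named as well. The members and lists were chosen with earlier results of these data known. The listed symbols puf-10 and ntl-1 were not matched and are not analysed here. Of 16 sperm markers 12 were tested and of 16 early embryo markers 14.

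Replicate numbers were taken to pair libraries where same-numbered deviations from the genotype means correlated above 0.1 in all 5 pairs. This held only for flp-17oe egl-6(lof) with flp-17oe, from 0.133 to 0.573.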

Additional observations from a re-analysis of the deposited data

Results flagged for a closer look

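In 8 of the 50 sets of 5 libraries (10 genes in 5 genotypes), or 16%, the lowest library lay far from the next by Dixon's criterion at the 95% level, which chance exceeds in about 1 of 20 sets. The 8 sets come from only 2 libraries, and genes that vary together are not independent. Replicate 1 of flp-17(lof) was the far one for 5 genes. It had 228 CPM of oma-1 with 362 CPM in the nearest library of its genotype, 474 CPM of oma-2 with 602 CPM, 477 CPM of spn-4 with 795 CPM, 542 CPM of pos-1 with 700.3 CPM, and 389 CPM of mex-3 with 549 CPM. This library also had the fewest counts, the lowest scaling factor and the highest ribosomal RNA share. Replicate 2 of flp-17oe was the far one for 3 genes, with 649 CPM of spn-4 against 829 CPM in the nearest library, 488 CPM of mex-3 against 593 CPM and 539 CPM of mex-5 against 725 CPM. Its ribosomal RNA share was 2.58%, the highest of its genotype. What part that share had in these values was not tested.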

How the results depend on the processing

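Over 37 alternatives none of the 2220 changes of a member in a comparison or interaction was called, and the smallest adjusted p was 0.0539, that of puf-11 in egl-6(lof) against N2 under DESeq2. In 159 of the 2220 the sign differed from the reported one, in each case without a call. Changes shifted by more than 1 standard error in 11 cases, 6 of them without flp-17oe replicate 2 and 3 without flp-17(lof) replicate 1. The joint test of any genotype called 0 of 10 members, but 1 under DESeq2, where 4278 of 22410 genes were called. Leaving out single libraries or replicate numbers gave 0 to 1, the 1 being puf-11 without N2 replicate 2 (adjusted p = 0.0496), against an adjusted p of 0.0717 without flp-17(lof) replicate 1. Without N2 replicate 2 the joint test called 3291 of 14759 genes. With the replicate block in place of batch 0 members were called in all 7 tests, so the pairing of flp-17oe egl-6(lof) with flp-17oe changed no call, and its smallest adjusted p over members was 0.540. The median spread of the members ran from 0.124 to 0.151 over its alternatives, in which filter and scaling were redone. Among them it was 0.125 without flp-17(lof) replicate 1, against 0.123 with the scaling of all 25 libraries kept. Leaving flp-17(lof) replicate 1 out of the spread and the likeness was chosen after seeing the data. Over all genes, egl-6(lof) against N2 had 71 calls, but 359 by DESeq2, 35 without the batch term and 39 fitted to the compared genotypes alone. It had 251 without flp-17(lof) replicate 1. For the double strain against flp-17oe 204 compares with 348 by DESeq2 and 125 fitted alone, and for the interaction 13 compares with 36 by DESeq2, 6 without the batch term and 7 with the replicate block. Leaving out single libraries or replicate numbers gave 17 (without replicate 4) to 693 calls (without replicate 1) in egl-6(lof) against N2, and 411 (without replicate 4) to 1418 for 1018 in flp-17oe against N2. In the double strain it gave 18 (without replicate 3) to 322 against flp-17oe and 1321 (without replicate 4) to 2453 for 2108 against egl-6(lof). The interaction ran from 2 (without replicate 5) to 168 (without replicate 1), and flp-17(lof) against N2 from 10 to 14 for 11. The joint test of any genotype gave 1691 (without replicate 4) to 3473 for 3080. The members had 2389 counts or more in every library, so the spread between replicates, given with each interval, limits what could be seen.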
